A study of Rattus norvegicus with 8 samples.

Results

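The comparison is of colitis under n-3 fatty acid diets with colitis under an n-6 diet in rat colon. Its members are 6 of the 8 arrays of the series. They are the 4 arrays whose titles name the alpha-linolenic acid (ALA) or fish oil colitic group, as 1 set, and the 2 arrays titled n-6 colitic group. All animals were female Wistar rats aged 14 weeks, kept for 8 weeks on a diet enriched with ALA (10 rats), fish oil (10 rats) or sunflower oil, the n-6 diet (10 rats). All 3 of these groups then received 5% dextran sulfate sodium (DSS), which damages the epithelium of the colon, over 7 days. The remaining 2 arrays are of 6 healthy rats fed sunflower oil without DSS, and their values are given as background. Groups were taken from the titles and the stress field, since the description field calls the tissue of all 8 samples healthy. RNA of 6 rats was pooled for the arrays, so no array is 1 animal. Whether both arrays of a group carry 1 pool or separate pools is not stated. With pools of 6 rats the 2 healthy arrays share animals, since that group had 6 rats. In the colitis groups of 10 rats, 2 pools of 6 would share some animals too. The p-values below therefore measure only the spread between arrays, which may be technical and is not a spread between independent sets of animals. The title of the series speaks of different gene sets for ALA and for long-chain n-3 fatty acids. The question here is the converse, namely what both diets had in common against n-6.

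ALA is the plant n-3 fatty acid, and the body elongates and desaturates a small part of it to the long-chain eicosapentaenoic and docosahexaenoic acids that fish oil supplies ready made. Linoleic acid, the main n-6 fatty acid of sunflower oil, feeds the pool of arachidonic acid, from which cyclooxygenases and lipoxygenases make prostaglandins and leukotrienes. DSS colitis is an injury of the epithelium with bleeding, clotting, influx of neutrophils and macrophages, and remodelling of the wall.

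Each array gave a level for 18171 genes, the log2 processed Cy3 signal minus the 75th percentile of that array, so that 0 is a bright gene and 1 unit is a doubling. The 8 arrays lay on 1 slide and had 54.0% to 70.1% of 30367 probes well above background. The lowest share was that of fish oil replicate 1, against 59.8% to 70.1% on the other 7. The n-6 arrays correlated with each other at r = 0.948 across genes, which are not independent replicates, below the fish oil pair (0.971) and the ALA pair (0.953). Replicate 2 of n-6 correlated more with each of the 4 n-3 arrays (0.958 to 0.968) than with n-6 replicate 1. Columns 1 and 2 of the slide held the n-3 arrays, and columns 3 and 4 the n-6 and healthy arrays. Slide column and diet therefore cannot be told apart. Slide row 2 held both fish oil and n-6, so that fish oil against n-6 is the value within a row. Of 28 tested absorptive colonocyte genes 20 were well above background on all 8 arrays, as were 15 of 15 goblet cell genes, and the tissue thus carried colon markers. Of 19 squamous epithelium genes on the array 11 entered no test.

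A linear model with 1 mean per group was fitted with limma to all 8 arrays, and the mean of the ALA and fish oil groups was set against the n-6 group. Against n-6 colitis, 4 haemoglobin genes fell, and Lpal2 and a probe without a gene name rose, at an adjusted p under 0.05. These 6 genes are 0.033% of the 18171 tested, the 2 that rose 0.011% and the 4 that fell 0.022%. With the arrays centred on their medians 1 gene rose and 5 fell, and with normexp background correction and quantile scaling 0 rose and 4 fell. At an unadjusted p under 0.05 there were 1502 genes (8.27%), 842 higher and 660 lower with n-3, but 507 higher and 1057 lower with median centring, which moved the median of all genes from 0.029 to -0.13. With any 1 of the 4 n-3 arrays or n-6 replicate 1 left out, 0 genes passed with limma, while 854 to 1500 had an unadjusted p under 0.05, and without n-6 replicate 2, 4 passed. The unadjusted number was 854 without n-6 replicate 1 and 3382 without n-6 replicate 2. All 4 n-3 arrays lay above both n-6 arrays for 1497 genes (8.24%) and below both for 1316 (7.24%). In 348 of the former (1.92%) and 202 of the latter (1.11%), the ALA mean and the fish oil mean each differed from the n-6 mean by at least 1 (550 in all, 3.03%). ALA against n-6 and fish oil against n-6 use the same n-6 arrays, so a like difference in both is not independent evidence of a common effect.

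The 60-base probes of Hbb-b1 and Hbe2, which are 2 of the 4 called haemoglobin genes, are shown because the genes of this family are close copies and a probe can bind the RNA of a relative. Those of Alas2, of haem synthesis, and of the unnamed probe are shown beside them. Capitals mark the longest run of identical bases shared by the Hbb-b1 and Hbe2 probes, and the other sequences have no capitals. Positions are those of the scanner files on the rn4 build. All are written 5′ to 3′ as synthesised for the transcript.
Hbb-b1, chr1:161597660-161597719, minus strand: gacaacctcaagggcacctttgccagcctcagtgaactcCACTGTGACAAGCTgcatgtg
Hbb-b1, further probe, chr1:161590854-161590913, minus strand: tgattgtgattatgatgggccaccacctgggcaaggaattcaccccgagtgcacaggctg
Hbe2, chr1:161648636-161648695, minus strand: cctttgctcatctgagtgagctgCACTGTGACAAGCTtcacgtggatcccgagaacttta
Alas2, chrX:39810353-39810412, plus strand: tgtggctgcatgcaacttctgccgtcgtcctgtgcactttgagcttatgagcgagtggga
unnamed probe A_64_P146089, chr4:70451412-70451471, minus strand: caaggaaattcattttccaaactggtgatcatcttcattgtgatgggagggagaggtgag
The Hbb-b1 and Hbe2 probes shared a run of 14 bases and, in the best alignment without gaps, 35 of 44 aligned bases. The exon of each probe was not analysed here.

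Haemoglobin genes encode the alpha and beta chains of the oxygen carrier of red cells and are transcribed at high rates in red cell precursors. The alpha chain gene Hba-a1 (probe at chr10:15584360-15584419) had levels of 2.96 and 2.87 with ALA, 2.60 and 2.43 with fish oil and 7.06 and 6.50 with n-6. Both n-6 arrays lay above every n-3 array, and the healthy arrays lay at 1.95 and 1.81, below all 6. Its level fell by 4.06 on the log2 scale with n-3 (SE 0.269, adjusted p = 0.00647), which is a 16.7-fold lower signal. The beta chain gene Hbb (chr1:161584872-161584931) stood at 1.84 and 1.95 with ALA, 0.92 and 1.38 with fish oil and 5.78 and 5.42 with n-6, and its difference was -4.07 (SE 0.272, adjusted p = 0.00647). For Hbb-b1, another adult beta chain, the levels were 1.35 and 1.60 with ALA, 0.85 and 0.91 with fish oil and 6.25 and 5.40 with n-6. The difference of -4.65 (SE 0.312, adjusted p = 0.00647) was -4.36 with ALA and -4.95 with fish oil. Hbe2, an epsilon-type beta chain, had -0.48 and -0.17 with ALA, -1.08 and -0.98 with fish oil and 4.54 and 3.49 with n-6, a difference of -4.69 (SE 0.344, adjusted p = 0.00953). In each of these 4 genes the gap between the highest n-3 array and the lower n-6 array was wider than the whole range of the n-3 arrays. Fish oil arrays were the lowest of the colitis arrays in all 4, and the ALA minus fish oil difference of Hbb was 0.74 (SE 0.314, unadjusted p = 0.05, adjusted p = 0.52). With 1 array left out the n-3 minus n-6 difference ran from -4.34 to -3.79 for Hba-a1 and from -5.08 to -4.23 for Hbb-b1. In the deposited value table Hba-a1 and Hbb did not pass, Hba-a1 with -3.42 (adjusted p = 0.456) and Hbb with -1.07 (adjusted p = 0.781).

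Second probes filed under the same symbols gave similar sizes. The second Hbb-b1 probe gave -4.50 (SE 0.303, adjusted p = 0.00562 over all probes), that of Hba-a1 -4.05 (SE 0.418, adjusted p = 0.0552) and that of Hbb -3.37 (SE 0.386, adjusted p = 0.083). The 2 Hbb-b1 probes start at different places on chromosome 1 of rn4, 161597660 and 161590854. Whether both lie in 1 gene copy was not tested, so the second is not a repeat measure of 1 gene. Since the copies share sequence, the assignment of signal to single haemoglobin genes is uncertain. Hbb-bs, a further beta chain gene, stood at -0.23 and -0.24 with ALA, -0.06 and -1.19 with fish oil and 3.96 and 2.70 with n-6, without overlap of the groups, and its difference of -3.76 did not pass (SE 0.465, unadjusted p = 8.45e-05, adjusted p = 0.14). Alas2, the enzyme that starts haem synthesis in red cell precursors, stood at -4.87 and -4.15 with ALA, -5.34 and -4.43 with fish oil and 0.18 and -0.67 with n-6. Its difference of -4.46 (SE 0.452) just missed the threshold (adjusted p = 0.0603), and the probe was well above background on 1 of 2 ALA, 1 of 2 fish oil and both n-6 arrays. Ahsp, the chaperone of free alpha chains, was at -1.68 and -1.11 with ALA, -1.86 and -2.45 with fish oil and 0.055 and -0.40 with n-6 (difference -1.60, SE 0.331, adjusted p = 0.436). The transcription factors of red cell precursors showed no such gap, but their probes were dim. The faintest signals called well above background on the n-6 arrays were -5.81 and -5.12. The n-6 levels of both genes lay less than the globin difference above these, so a fall of that size could not show. Klf1 stood at -2.66 and -3.74 with ALA, -4.35 and -4.23 with fish oil and -3.93 and -3.80 with n-6, and Gata1 at -3.26 and -4.76 with ALA, -5.71 and -6.46 with fish oil and -5.03 and -4.96 with n-6, with differences of 0.12 and -0.053 (SE 0.632 and 0.859), and Gata1 was not well above background with fish oil.

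Of the list of 21 red cell genes 16 were on the array and 8 were tested. Of these 8, 4 were called lower (0.022% over all genes) and 0 higher. All n-3 arrays lay below both n-6 arrays in 6, against 7.24% of all genes. The median difference was -4.07, against 0.029 over all genes. In the deposited value table the median was -2.53, with 2 called. Without the filter on dim probes the 16 genes had a median of -0.41. The 8 that entered no test include the membrane proteins Slc4a1, Epb42, Rhag and Rhd and the embryonic globins Hbz, Hbe1 and Hbg1, each well above background on at most 2 of 8 arrays. The median was -3.84 without n-6 replicate 1 and -4.03 without fish oil replicate 1, and in fish oil against n-6 alone it was -4.35. In bulk tissue, fewer cells of a type and less RNA per cell cannot be told apart. The part of blood left in the tissue in this difference was not tested.

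The bases upstream of the transcription start are shown for 3 of the called globins and Alas2, since these genes moved together. They are the 250 bases before the start, on the gene's strand, from RefSeq on the GRCr8 build. Capitals mark matches on either strand to the letters TATAAA of the TATA box, CCAAT of the CCAAT box, CACCC of a box known from globin promoters and AGATAA of a GATA element. Overlapping matches are joined.
Hba-a1, chr10:15842581-15842830, minus strand: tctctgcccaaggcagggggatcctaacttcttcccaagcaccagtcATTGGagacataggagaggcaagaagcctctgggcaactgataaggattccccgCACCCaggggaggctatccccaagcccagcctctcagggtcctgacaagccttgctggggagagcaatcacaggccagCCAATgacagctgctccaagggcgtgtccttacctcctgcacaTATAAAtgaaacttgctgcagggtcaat
Hbb, chr1:167663722-167663971, minus strand: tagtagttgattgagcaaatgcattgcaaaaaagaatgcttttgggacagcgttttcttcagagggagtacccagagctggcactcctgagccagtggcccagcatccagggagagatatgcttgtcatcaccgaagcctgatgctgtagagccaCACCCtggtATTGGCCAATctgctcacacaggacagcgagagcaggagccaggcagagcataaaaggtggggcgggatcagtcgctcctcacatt
Hbb-b1, chr1:167643521-167643770, minus strand: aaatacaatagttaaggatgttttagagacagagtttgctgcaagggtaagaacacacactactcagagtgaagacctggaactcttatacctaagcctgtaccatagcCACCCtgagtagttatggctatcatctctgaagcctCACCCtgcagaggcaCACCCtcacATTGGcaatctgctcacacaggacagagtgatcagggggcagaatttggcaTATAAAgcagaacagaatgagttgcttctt
Alas2, chrX:22895200-22895449, plus strand: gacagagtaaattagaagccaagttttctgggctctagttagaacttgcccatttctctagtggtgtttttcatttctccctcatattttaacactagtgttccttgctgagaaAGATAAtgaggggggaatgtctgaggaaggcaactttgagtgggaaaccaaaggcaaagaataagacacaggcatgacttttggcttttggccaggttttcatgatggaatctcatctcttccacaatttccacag
TATAAA was found in the windows of Hba-a1, 28 to 23 bases before the start, and Hbb-b1, 30 to 25 bases before it. CCAAT or its reverse complement lay in all 3 globin windows, nearest to the start at 71 to 67 bases in Hba-a1, 81 to 77 in Hbb and 81 to 77 in Hbb-b1. CACCC matched once in Hba-a1, once in Hbb and 3 times in Hbb-b1. The Alas2 window held AGATAA alone of the 4, at 136 to 131 bases. Only these letters were searched for a GATA element. The Hba-a1 window holds the similar TGATAA in lower case, so the capitals do not show that the globin windows lack such an element. Among 33469 upstream windows of the same length, 12.9% held TATAAA, 34.0% CCAAT, 49.2% CACCC and 10.3% AGATAA on either strand. A match is a run of letters and not a measured binding site.

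**Figure D1:**
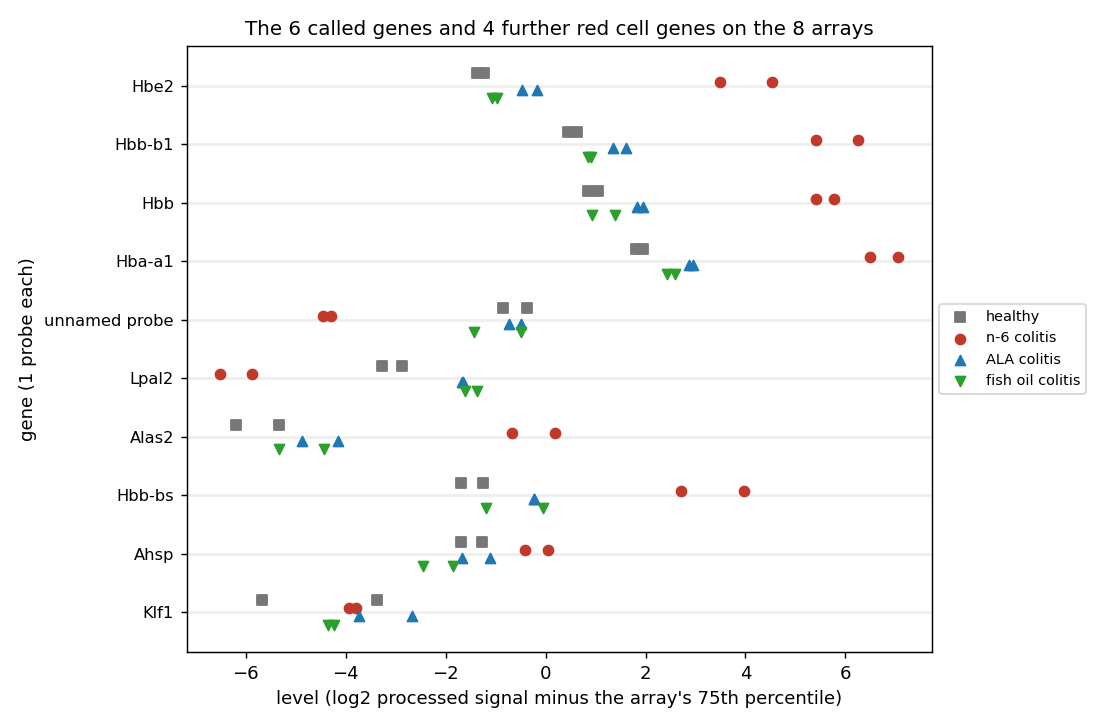
Level (log2 processed signal minus the 75th percentile of the array) of the 6 called genes, the unnamed probe among them, and of Alas2, Hbb-bs, Ahsp and Klf1, with 1 point per array and 2 arrays per group. The n-6 arrays stand apart on the high side for the globins and Alas2 (Hba-a1 at 7.06 and 6.50 against 2.43 to 2.96 on the n-3 arrays), on the low side for Lpal2 and the unnamed probe, and among the others for Klf1.

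Lpal2 (probe at chr4:169218749-169218808, plus strand) was the named gene that rose. Its levels were -1.67 and -1.65 with ALA, -1.61 and -1.37 with fish oil and -5.87 and -6.51 with n-6, and the healthy arrays stood between at -2.87 and -3.28. The 4 n-3 arrays lay close to each other and above all 4 others. The probe was not well above background on either n-6 array, so its fold rests on a floor. The floor is the faintest signal called well above background on each n-6 array, or the probe's own where that was higher. Probes not well above background can lie above the floor, so the fold holds for this scaling only. On this basis Lpal2 was 14.8-fold higher (fitted difference 4.62, SE 0.294, adjusted p = 0.00647). A second probe that the array files under the same locus, 849 bases away on the same strand, did not show this. Its levels were -3.77 and -4.83 with ALA, -5.84 and -7.19 with fish oil and -5.55 and -4.72 with n-6, it was well above background on 3 of 8 arrays, and its difference was -0.27 (SE 0.846, adjusted p = 0.952 over all probes). With normexp background correction the first probe differed by 1.34, so the fold by the floor is not a minimum over processing. The unnamed probe is given because it passed, outside the rule for naming genes. It stood at -0.73 and -0.50 with ALA, -0.49 and -1.43 with fish oil and -4.45 and -4.30 with n-6, against -0.85 and -0.38 in healthy colon, a difference of 3.59 (SE 0.342, adjusted p = 0.0462). Both n-6 arrays were well above background there, but far below every other array, and with normexp background correction the difference was 1.58. It passed in 4 of 20 alternatives, and not with median centring, without the filter, in the colitis arrays alone or with an array left out (highest adjusted p = 0.621).

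By a fixed rule, 12 genes per direction were then taken from those at least 1 unit from n-6 with each diet and without overlap of arrays, in order of the unadjusted p. The direction was part of the choice, so these values describe the genes and support nothing further. Among the 12 lower genes are the 4 called globins, Alas2 and Hbb-bs. With normexp background correction and quantile scaling 3 of the 12 moved by over 1.5 times, Alas2 to -2.17, Fosl1 to -1.22 and Pla2g4a to -1.07. Fosl1, the Fra-1 subunit of the AP-1 transcription factor, was at -3.68 and -3.85 with ALA, -3.65 and -3.93 with fish oil and -1.34 and -1.30 with n-6, and the probe was well above background on 1 of 2 fish oil arrays. Its difference of -2.46 did not pass (SE 0.275, unadjusted p = 4.37e-05, adjusted p = 0.0972), although the n-6 arrays stood more than 2 units above every n-3 array. Angptl4, a secreted inhibitor of lipoprotein lipase, had 0.67 and 0.80 with ALA, -0.85 and -0.63 with fish oil and 2.87 and 2.54 with n-6 (difference -2.71, adjusted p = 0.325), and the ALA arrays lay above the fish oil arrays by 1.48. Tnfrsf12a, the receptor of the cytokine TWEAK, had -0.76 and 0.13 with ALA, 0.019 and -0.70 with fish oil and 2.23 and 1.74 with n-6 (difference -2.32, adjusted p = 0.325). Here the ALA and fish oil arrays overlapped fully. Spns2, which exports sphingosine-1-phosphate, differed by -1.67, the collagen V chain Col5a3 by -1.80 and Pla2g4a, the phospholipase that frees arachidonic acid from membranes, by -1.85 (adjusted p = 0.403, 0.403 and 0.436).

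None of the 12 higher genes passed, with adjusted p from 0.3 to 0.468 and differences from 1.23 to 2.80. With normexp background correction and quantile scaling the 12 differences ran from 0.21 (Ttc7a) to 2.22 (Nptx2), and 9 of them were under 1. The largest was that of Nptx2, a secreted pentraxin known from synapses, at 1.07 and 1.60 with ALA, 1.45 and 0.84 with fish oil and -1.89 and -1.22 with n-6. The n-3 levels overlapped those of healthy colon (2.21 and 1.19). Pck1, an enzyme of gluconeogenesis that colon epithelium also carries, stood at 0.035 and 0.62 with ALA, -0.20 and 0.15 with fish oil and -2.95 and -1.54 with n-6, against 1.20 and 1.96 in healthy colon (difference 2.39, adjusted p = 0.436). Car12, a membrane carbonic anhydrase, had -2.77 and -3.15 with ALA, -2.94 and -3.26 with fish oil and -5.30 and -4.27 with n-6 (difference 1.76, adjusted p = 0.436). On 1 of the 2 n-6 arrays it was not well above background. Ttc7a, part of a complex that holds a phosphatidylinositol kinase at the cell membrane, differed by 1.30 and Pip5k1b, a further kinase of phosphoinositides, by 1.43. The others were Galnt6, which starts mucin-type O-glycans (1.85), the membrane protein Gpm6a (2.60), Cd38, an enzyme that consumes NAD (1.54), Pank3, which starts coenzyme A synthesis (1.46), the AMPK-related kinase Nuak2 (1.78), Caskin2 (1.23) and Morn1 (2.31). In 12 of 12 lower genes the healthy mean lay below the n-6 mean, and in 12 of 12 higher genes above it. Those differences share the n-6 arrays with the choice of genes.

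**Figure D2:**
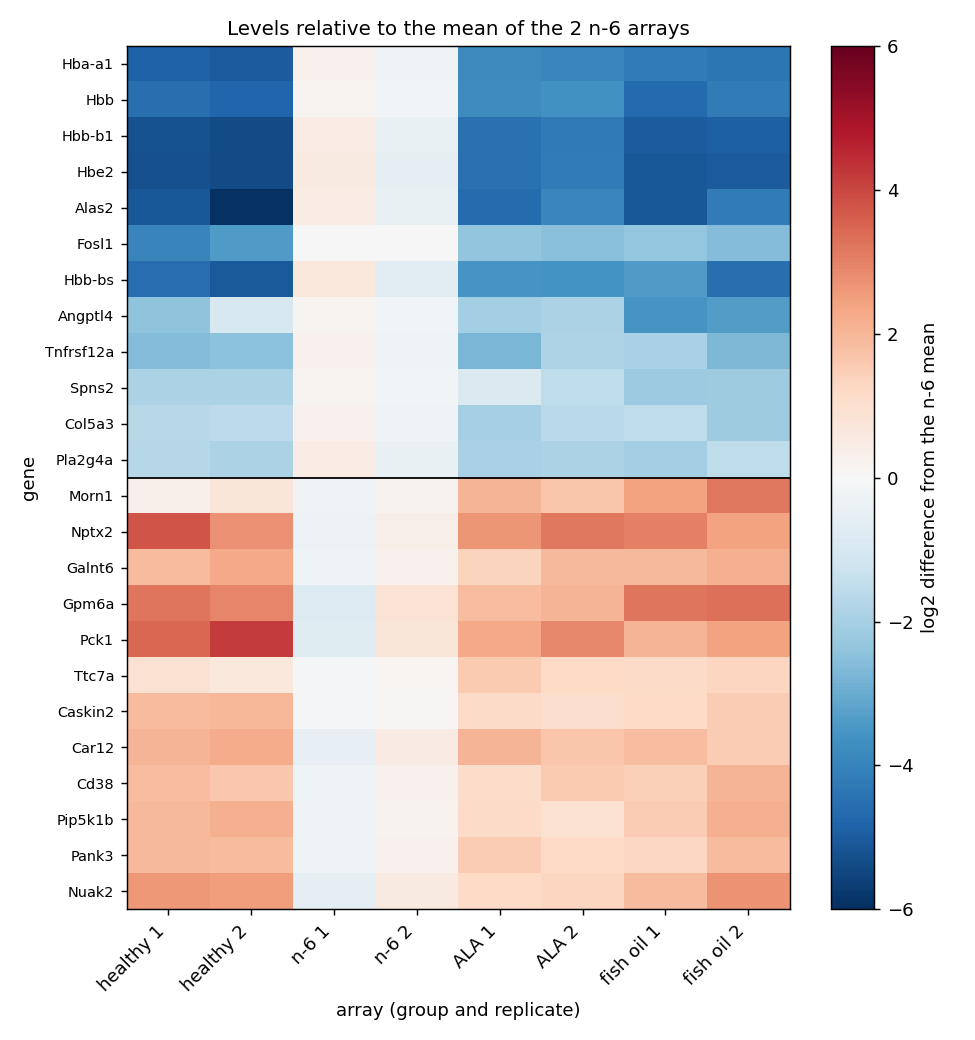
Difference of each array from the mean of the 2 n-6 arrays (log2, colour) for the 12 lower genes (above the line) and 12 higher genes (below it), in columns of 2 arrays per group. The 4 n-3 columns have 1 sign per row by the choice of genes. The spread among them is widest in Angptl4, Nuak2, Gpm6a and Morn1, and the healthy columns have the n-3 sign in all 24 rows.

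For genes not well above background in n-6 or in all n-3 arrays, folds were set against such a floor and are not minima over processing. Higher with n-3 were, besides Lpal2, Slurp2, Rln1 and B3gnt6, and each of these stood higher with 1 diet than with the other. Slurp2, a secreted Ly6-family protein, stood at -1.49 and -1.99 with fish oil but -4.89 and -5.85 with ALA, where it was not well above background, and -6.36 and -6.75 with n-6. The relaxin gene Rln1 stood the other way, at -3.17 and -3.43 with ALA, -5.74 and -5.75 with fish oil and -6.77 and -6.27 with n-6, and was not well above background with fish oil or n-6. B3gnt6, the colon enzyme of core 3 O-glycans, was well above background on 1 of 2 ALA and 1 of 2 fish oil arrays (-5.51 and -5.57 with ALA, -3.69 and -3.52 with fish oil and -6.96 and -6.54 with n-6). Their adjusted p were 0.14, 0.216 and 0.436. Lower with n-3 was Them7, at -2.91 and -2.47 with n-6 and between -6.11 and -5.14 on the n-3 arrays (5.1-fold lower by the floor, adjusted p = 0.0972). So were Clec4d, a lectin receptor of myeloid cells (2.84-fold, 0.312), the homeobox gene Gsc (3.99-fold, 0.312) and the olfactory receptor Or13c25 (3.72-fold, 0.325). None of these 7 passed. With normexp background correction and quantile scaling the differences of the 7 ran from -0.81 (Them7) to 0.64 (Slurp2).

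Gene lists were described by counts and medians. Over all 18171 genes, 4.63% had an unadjusted p under 0.05 on the higher side and 3.63% on the lower side. Of 19 tested collagen and fibroblast genes 11 reached that p lower with n-3 and 0 higher. All n-3 arrays lay below both n-6 arrays in 11, against 7.24% of all genes, and the median difference was -0.78. None passed over all genes. The fibrillar collagen gene Col1a2 stood at 3.95 and 4.16 with ALA, 4.14 and 4.16 with fish oil and 5.19 and 4.93 with n-6, a difference of -0.96 (SE 0.26, unadjusted p = 0.00763, adjusted p = 0.499). Its 4 n-3 arrays lay within the healthy values of 4.23 and 3.83. Col3a1, of reticular fibres, had 5.00 and 4.60 with ALA, 5.32 and 4.65 with fish oil and 6.46 and 5.77 with n-6 (difference -1.22, SE 0.375). Fbn1, the fibrillin of elastic microfibrils, had -1.66 and -1.50 with ALA, -1.63 and -1.50 with fish oil and 0.076 and -0.84 with n-6 (difference -1.19, SE 0.318), and Col5a1 -0.80 and -0.91 with ALA, -0.29 and -0.20 with fish oil and 0.41 and 0.23 with n-6 (difference -0.87, SE 0.237). In none of these 4 genes did n-3 and n-6 overlap. The list members Dcn, Lum and Vim differed less, by -0.33, -0.12 and -0.064 (SE 0.349, 0.402 and 0.282). They were picked from the list and do not stand for its other members, such as Pdgfra, Pdgfrb, Dpt and Mfap5. The median of 16 smooth muscle genes was -0.18. The collagen and fibroblast count became 4 with n-6 replicate 1 left out and 6 with fish oil replicate 2 left out. The median without n-6 replicate 1 was -0.58, and in fish oil against n-6 alone 9 were lower.

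Of 26 tested matrix remodelling genes 10 were lower at the unadjusted p and 0 higher, with a median of -0.97 (-0.58 without n-6 replicate 1). That count became 4 with n-6 replicate 1 left out and 6 with ALA replicate 2 or fish oil replicate 2 left out. Timp1, the inhibitor of matrix metalloproteinases, had the smallest p, with 4.21 and 3.62 with ALA, 4.24 and 3.25 with fish oil and 6.13 and 5.66 with n-6, against 2.36 and 2.03 in healthy colon. It differed by -2.07 (SE 0.377, unadjusted p = 0.000915, adjusted p = 0.436), and the n-3 arrays thus lay between healthy and n-6 colitis. Adamts5, a protease of aggrecan, differed by -1.22 and the matrix glycoprotein Tnc by -1.65 (SE 0.327 and 0.45), Tnc standing at 1.63 and -0.041 on the n-6 arrays and -1.20 to -0.48 on the n-3 arrays. The metalloproteinases themselves were spread widely within groups. Mmp3 stood at -1.13 and -5.18 with ALA, -4.53 and -6.79 with fish oil and -0.63 and -5.10 with n-6, and Mmp13 at -0.053 and -1.62 with ALA, -2.72 and -3.99 with fish oil and 1.96 and -2.64 with n-6, so their groups overlapped.

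Of 19 tested clotting and complement genes, 6 reached the unadjusted p lower with n-3 and 0 higher, with a median of -0.56, and 5 without n-6 replicate 1, where the median was -0.68. F3, the tissue factor that starts clotting, stood at 1.79 and 1.61 with ALA, 0.95 and 1.04 with fish oil and 3.89 and 2.69 with n-6, against 0.41 and 0.24 in healthy colon (difference -1.94, SE 0.365, adjusted p = 0.436). C5ar1, the receptor of the complement fragment C5a, had -1.15 and -1.22 with ALA, -1.30 and -1.50 with fish oil and 0.44 and -0.26 with n-6 (difference -1.38, SE 0.294, adjusted p = 0.436). For both the 4 n-3 arrays lay below both n-6 arrays. Thbd, the thrombin-binding anticoagulant of endothelium, differed by -1.50 (SE 0.384), but by 0.70 with the opposite sign in the deposited value table. Of 16 AP-1 and immediate early genes 4 were lower and 0 higher (median -0.59). Beside Fosl1 they were Myc, with 1.21 and 1.44 with ALA, 0.29 and -0.28 with fish oil and 2.18 and 1.51 with n-6 (difference -1.18, SE 0.313), Egr2 (-1.48) and Atf3 (-1.15), all transcription factors induced within a short time of a stimulus. That count became 1 with n-6 replicate 1 left out.

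**Figure D3:**
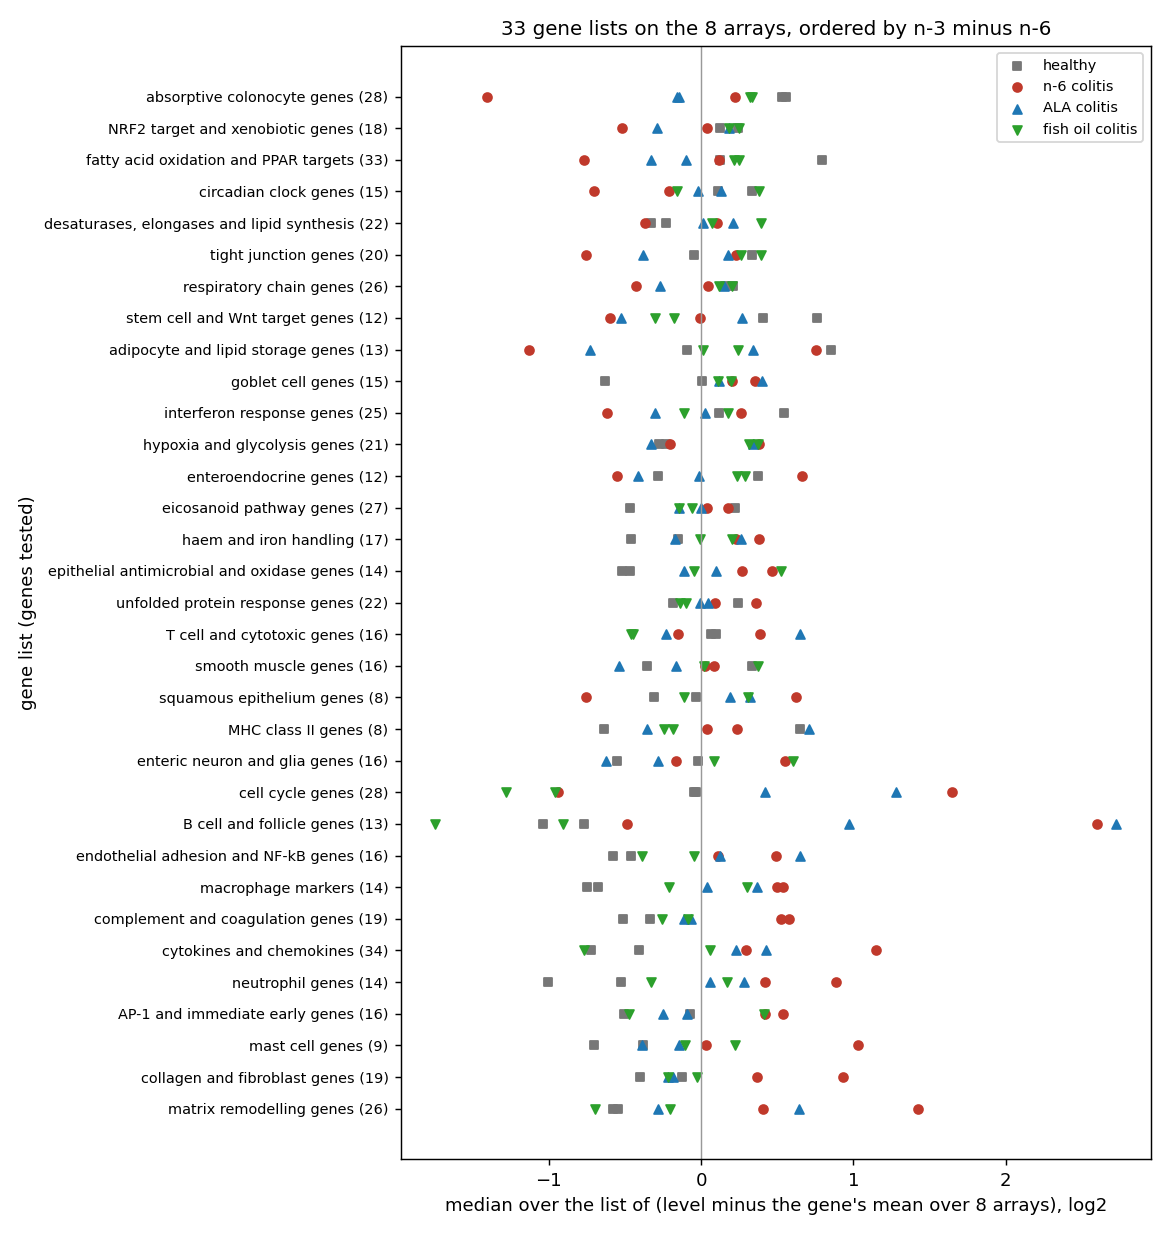
Median over each of 33 gene lists of the level minus the gene's mean over the 8 arrays (log2), with 1 point per array, ordered by the n-3 minus n-6 difference. The red cell list, whose median was -4.07, lies off this scale. Both n-6 arrays exceed every other array in the collagen and fibroblast, complement and coagulation, neutrophil, macrophage and AP-1 lists. In the absorptive colonocyte, cell cycle and B cell lists the 2 n-6 arrays lie far apart.

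Inflammatory cell and signal genes were lower in part, against 3.63% lower over all genes at the unadjusted p. Of 34 cytokines and chemokines 7 reached the unadjusted p lower with n-3 and 0 higher (median -0.58). The median was -0.26 with ALA and -1.21 with fish oil. That count became 1 with n-6 replicate 1 left out and 12 with n-6 replicate 2 left out. Il1rn, the antagonist of the interleukin-1 receptor, stood at 2.03 and 2.17 with ALA, 2.66 and 1.48 with fish oil and 4.09 and 3.82 with n-6, against 0.72 and 0.86 in healthy colon (difference -1.86, SE 0.364, adjusted p = 0.436). Ccl3, a chemokine of macrophages, had -0.82 and -1.54 with ALA, -3.16 and -2.13 with fish oil and 0.15 and -0.73 with n-6 (difference -1.62, SE 0.431). Ccl2, which draws monocytes, had 1.21 and 1.12 with ALA, 1.05 and -0.79 with fish oil and 3.15 and 1.82 with n-6 (difference -1.84, SE 0.579), and fish oil replicate 2 stood apart from the other 3 n-3 arrays. Tgfb1 differed by -1.08 (SE 0.351), with 3 of 4 n-3 arrays below both n-6 arrays. Of 14 neutrophil genes 2 were lower and 0 higher (median -0.58, or -0.24 with normexp and quantile scaling). Without the filter on dim probes 1 of 23 was lower (median -0.27). Of the 7 well above background on all 6 colitis arrays 1 was lower (median -0.54). The 2 lower of the 14 were the receptors Cxcr1, at -6.60 and -7.34 with ALA, -5.76 and -4.87 with fish oil and -3.70 and -3.49 with n-6, and Csf3r, with differences of -2.55 and -0.77 (adjusted p = 0.403 and 0.593). Cxcr1 was well above background on 0 of 2 ALA and 1 of 2 fish oil arrays, so it entered the test through the n-6 or healthy group. Its difference was -0.52 at the weakest of 19 alternatives. That count became 1 with fish oil replicate 2 left out and 4 with fish oil replicate 1 or n-6 replicate 2 left out.

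Of 14 macrophage markers 2 were lower and 0 higher (median -0.43). Cd68, a lysosomal protein of macrophages, stood at 0.45 and 0.29 with ALA, -0.73 and -0.86 with fish oil and 1.12 and 0.51 with n-6 (difference -1.03, SE 0.282), and the signalling adaptor Tyrobp at 2.91 and 2.73 with ALA, 2.80 and 2.10 with fish oil and 3.85 and 3.54 with n-6 (difference -1.06, SE 0.296). That count became 0 with n-6 replicate 1 left out and 4 with ALA replicate 1 left out. Of 16 genes of endothelial adhesion and NF-kB signalling 3 were lower. Selp, the P-selectin that slows leukocytes on vessel walls, had -0.18 and -0.076 with ALA, -2.15 and -2.76 with fish oil and 2.73 and 0.32 with n-6, a difference of -2.82 (SE 0.698). It was higher with n-6 replicate 1 than with n-6 replicate 2 by more than 2 units, and lower with fish oil than with ALA. E-selectin (Sele) and Icam1 differed by -2.35 and -1.11 (SE 0.681 and 0.372). Sele was not well above background with fish oil, and differed by -0.68 at the weakest of 19 alternatives. That count became 5 with ALA replicate 2 left out and 6 with n-6 replicate 2 left out. Of 9 mast cell genes Hdc, which makes histamine, and Ms4a2, a chain of the IgE receptor, were lower (-1.43 and -0.95), and that count became 0 with n-6 replicate 2 left out and 1 with ALA replicate 1 or fish oil replicate 1 left out. Of 16 T cell and cytotoxic genes only Prf1 reached the unadjusted p (-1.59, SE 0.435). That lower count became 5 with ALA replicate 2 left out, 4 with n-6 replicate 1 left out and 0, beside 3 higher, with n-6 replicate 2 left out. Of 25 interferon response genes and 8 MHC class II genes 0 did (medians 0.11, or -0.043 with median centring, and -0.28). The interferon median was -0.35 without n-6 replicate 1 and 0.56, with 7 genes higher, without n-6 replicate 2, and the MHC class II median was 0.022 without ALA replicate 1. With median centring the lower counts were 12 for cytokines, 4 for neutrophil genes, 4 for mast cell genes and 5 for endothelial genes. The lower count over all 18171 genes rose as well with that scaling, from 660 to 1057.

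The eicosanoid pathway, the route from membrane phospholipid to prostaglandins and leukotrienes, had 27 tested genes, of which 7 were lower and 2 higher at the unadjusted p, with a median of -0.029. By the naming rule the 4 with the smallest p are described, all of them lower, and the 2 higher genes are not. Pla2g4a, at the entry of the pathway, stood at -3.11 and -3.08 with ALA, -3.25 and -2.72 with fish oil and -0.76 and -1.61 with n-6, against -2.88 and -3.07 in healthy colon (difference -1.85, SE 0.33, adjusted p = 0.436). Ptger2, a receptor of prostaglandin E2, had -3.09 and -3.08 with ALA, -2.80 and -3.30 with fish oil and -1.30 and -1.76 with n-6, against -3.19 and -3.18 in healthy colon (difference -1.54, SE 0.278, adjusted p = 0.436). In both genes the n-3 arrays lay at the healthy level and more than 1 unit below the n-6 arrays. Ptgis, which makes prostacyclin, differed by -0.97 (SE 0.321). Ptgs1, the constitutive cyclooxygenase, differed by -1.17 (SE 0.385) by its brighter probe and by 0.53 (SE 0.353) by its second probe, so the direction is uncertain. The inducible cyclooxygenase gene Ptgs2 was among 7 genes of the list that entered no test, each well above background on at most 2 arrays. The leukotriene genes Alox5, Alox5ap and Lta4h differed by 0.24, 0.048 and 0.078 (SE 0.516, 0.267 and 0.27), and the n-3 and n-6 arrays overlapped in each. The lower count became 3 with n-6 replicate 1 left out, and the higher count 0 with ALA replicate 1, ALA replicate 2 or fish oil replicate 2 left out and 1 with fish oil replicate 1 or n-6 replicate 1 left out. Among 22 genes of desaturases, elongases and lipid synthesis 0 reached the unadjusted p in either direction (median 0.38). Without n-6 replicate 1 the median was 0.078, with 1 gene higher and 1 lower, and without n-6 replicate 2 it was 0.63, with 3 higher.

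**Figure D4:**
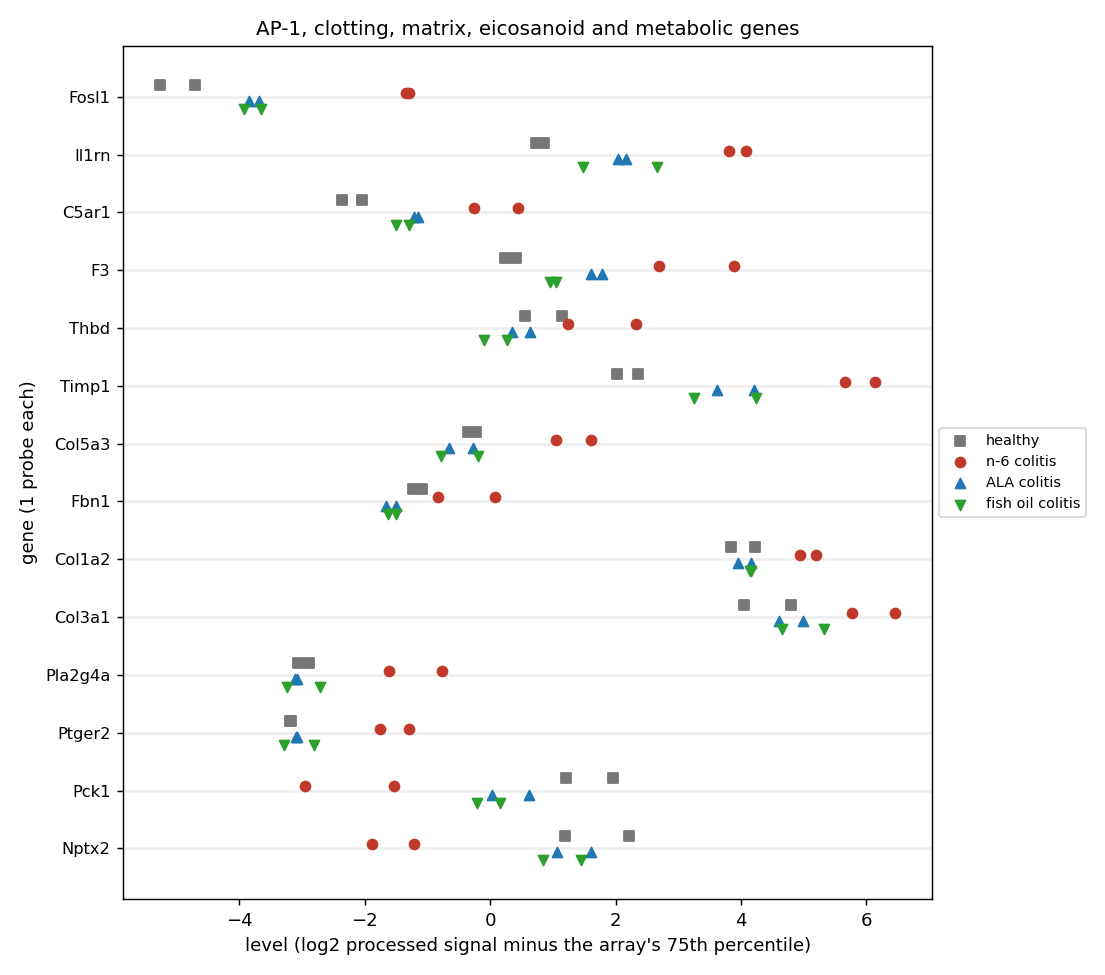
Level (log2 processed signal minus the 75th percentile of the array) of 14 genes of AP-1, cytokine, complement, clotting, matrix, eicosanoid and energy metabolism, with 1 point per array and 2 arrays per group. In 12 genes, Fosl1 to Ptger2, the n-6 arrays are the highest of the colitis arrays, and in Pck1 and Nptx2 they are the lowest. None of the 14 passed the adjusted threshold.

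Fatty acid oxidation genes and targets of PPARs, receptors that fatty acids activate, were higher in part. Over all 18171 genes 4.63% were higher and 3.63% lower at an unadjusted p under 0.05. The respiratory chain count given last is near that share. Of 33 tested, 5 were higher and 1 lower at the unadjusted p (median 0.55), and the lower one was Angptl4. The higher count became 1 with n-6 replicate 1 left out, 2 with ALA replicate 2 left out, 3 with fish oil replicate 1 or fish oil replicate 2 left out and 14 with n-6 replicate 2 left out. The median turned to -0.19 without n-6 replicate 1 and was 0.81 without n-6 replicate 2. Ppargc1a, a coactivator of mitochondrial genes, had -3.61 and -3.51 with ALA, -3.26 and -2.87 with fish oil and -6.98 and -4.12 with n-6 (difference 2.24, SE 0.708). Its n-6 replicate 1 was far below n-6 replicate 2, and the probe was well above background on 1 of the 2 n-6 arrays. The difference of Ppargc1a was 0.37 at the weakest of 19 alternatives. Of 26 respiratory chain genes 2 were higher, Atp5f1b (1.03, SE 0.306) and Uqcrc1 (0.68, SE 0.279), and 0 lower, and the higher count became 0 with n-6 replicate 1 left out, 1 with ALA replicate 1, ALA replicate 2, fish oil replicate 1 or fish oil replicate 2 left out and 5 with n-6 replicate 2 left out.

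Epithelial genes rested on 1 n-6 array. Their counts stand against 4.63% higher and 3.63% lower over all genes at the unadjusted p, and that of the absorptive colonocyte genes is below this share. The median of 28 absorptive colonocyte genes was 1.01, with 1 higher at the unadjusted p, Slc26a2 (2.36, SE 0.984), a sulfate transporter at -5.97 and -2.06 on the n-6 arrays. Without n-6 replicate 1 the median was -0.14, without n-6 replicate 2 it was 1.49, and the higher count became 0 with fish oil replicate 2 or n-6 replicate 1 left out, 2 with fish oil replicate 1 left out, 4 with ALA replicate 2 left out and 13 with n-6 replicate 2 left out. Of 15 goblet cell genes the transcription factors Atoh1 and Spdef, which drive the secretory lineage, were higher at the unadjusted p, and that count became 0 with n-6 replicate 1 left out and 1 with ALA replicate 2 or fish oil replicate 1 left out. Atoh1 stood at -1.72 and -2.34 with ALA, -2.16 and -2.60 with fish oil and -3.83 and -2.94 with n-6 (difference 1.18, SE 0.356), and Spdef at 3.27 and 3.60 with ALA, 4.62 and 3.27 with fish oil and 1.79 and 2.88 with n-6 (difference 1.35, SE 0.469). The trefoil peptide Tff1 was lower (-1.06, SE 0.441). No epithelial list had a member past the adjusted threshold. Of 20 tight junction genes 3 were higher, Cldn12 (1.06), Cgn (1.25) and Cldn8 (1.70), and 0 lower, and the higher count became 1 with n-6 replicate 1 left out and 8 with n-6 replicate 2 left out. Of 18 NRF2 target and xenobiotic genes 5 were higher and 0 lower (median 0.61, but 0.055 without n-6 replicate 1, 0.091 with normexp and quantile scaling and -0.12 over the 15 genes well above background on all 6 colitis arrays), among them the glutathione transferase Gsta4 at 0.95 and 0.54 with ALA, 0.75 and 1.09 with fish oil and -0.0014 and 0.11 with n-6 (difference 0.78, SE 0.265). The higher count became 1 with fish oil replicate 2 or n-6 replicate 1 left out, 2 with ALA replicate 1 left out and 3 with fish oil replicate 1 left out, and 2 with median centring. Of 15 circadian clock genes Ciart and Nr1d1, both repressors of the clock, were higher (2.28 and 1.25, SE 0.784 and 0.486) and 0 lower, and the higher count became 0 with ALA replicate 1, fish oil replicate 2 or n-6 replicate 1 left out, 1 with ALA replicate 2 left out and 5 with fish oil replicate 1 left out. The probe of Ciart was not well above background on either n-6 array, and its difference was 0.63 at the weakest of 19 alternatives. Duox1, an oxidase that makes hydrogen peroxide at the epithelial surface, stood at -3.16 and -3.75 with ALA, -5.75 and -4.55 with fish oil and -1.97 and -2.66 with n-6 (difference -1.98, SE 0.423, adjusted p = 0.436), below both n-6 arrays on 4 of 4 n-3 arrays. The difference of Duox1 was -0.66 at the weakest of 19 alternatives. Over the lists from collagen to clock genes, 0 members passed over all genes.

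The diets were also set against each other, without the n-6 arrays, to see where their mean hides a difference. Of 18171 genes 0 (0%) passed at an adjusted p under 0.05 with limma, and 1730 (9.52%) had an unadjusted p under 0.05, of which 1183 were higher with ALA (6.51%) and 547 lower (3.01%). Slide row and diet cannot be told apart here, since ALA lay in row 1 and fish oil in row 2. In several lists the diets stood apart. Of 28 cell cycle genes 13 were higher with ALA than with fish oil at the unadjusted p and 0 lower, with a median of 2.19. Against n-6, their median was 0.61 with ALA and -1.54 with fish oil. The count was 3 without ALA replicate 2, 3 without fish oil replicate 1 and 4 without fish oil replicate 2. Mki67, a marker of dividing cells, stood at 2.17 and 3.16 with ALA, 0.42 and 0.91 with fish oil and 3.53 and 1.01 with n-6. Of 13 B cell and follicle genes 5 were higher with ALA and 0 lower, with a median of 3.0, and 2 without ALA replicate 2 or fish oil replicate 2. Both lists were high on n-6 replicate 1 and low on n-6 replicate 2. Of 34 cytokines and chemokines 8 were higher with ALA and 0 lower, with a median of 0.98, and the count was 2 without fish oil replicate 2. Of 16 endothelial adhesion and NF-kB genes 4 were higher with ALA and 0 lower, and 1 without ALA replicate 2 or fish oil replicate 2.

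By the rule, 5 genes per direction are named. Higher with ALA were Izumo1r, of the folate receptor family, at 0.63 and -0.54 with ALA, -3.11 and -3.73 with fish oil and -1.47 and -1.05 with n-6 (difference 3.46, SE 0.458, unadjusted p = 0.000128, adjusted p = 0.466), Slc16a6, of the monocarboxylate transporter family (2.32), the transcription factors Klf2 (1.69) and Hhex (2.63), and Cd52, a surface glycoprotein of leukocytes (1.84). For Cd52 both diets lay below the n-6 arrays, at -1.19 and -1.39 with ALA, -2.68 and -3.58 with fish oil and -0.70 and -0.72 with n-6, while in the other 4 both n-6 arrays lay between the ALA and the fish oil arrays. Lower with ALA were Ly49i2, a natural killer cell receptor, at -4.34 and -4.75 with ALA, -2.50 and -2.08 with fish oil and -2.72 and -1.59 with n-6 (difference -2.25), the neuronal adhesion molecule Negr1 (-1.43), the channel subunit Cngb3 (-1.36), the olfactory receptor Or4k48b (-1.37) and Gramd2a (-1.42). Adjusted p of the 10 ran from 0.466 to 0.48.

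**Figure D5:**
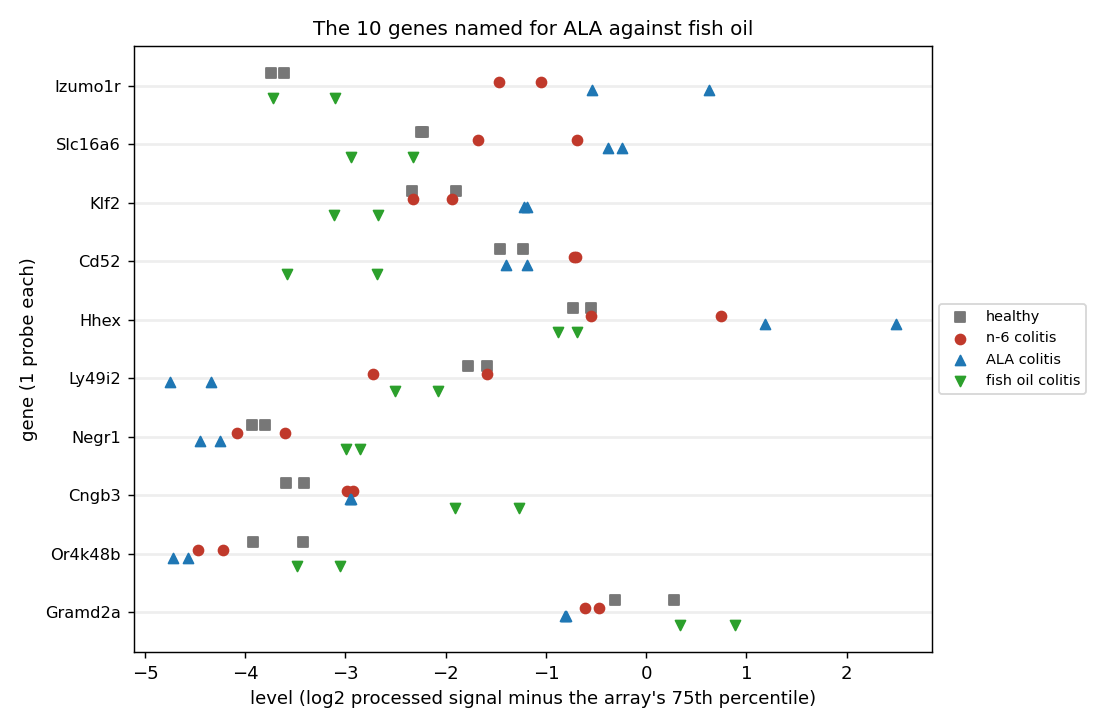
Level (log2 processed signal minus the 75th percentile of the array) of the 10 genes with the smallest p of ALA against fish oil in each direction, with 1 point per array and 2 arrays per group. The ALA and fish oil arrays do not overlap in any of them, as the choice implies. The n-6 arrays sit with fish oil for Ly49i2 and with ALA for Cngb3 (-2.98 and -2.92 against -2.95 and -2.95).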

How the data were processed

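Levels came from the Feature Extraction output of 8 one-colour arrays (Agilent Feature Extraction 11.5.1.1, per the file headers). Its processed intensity gives the Cy3 brightness after the background subtraction of that program, as deposited by the authors. Groups were taken from the sample titles. Spots of a probe were averaged, control and outlier spots left out, and log2 of the intensity minus the 75th percentile of each array was taken. A probe entered if 1 group or more had it well above background on each of its arrays (20801 of 30367 probes), and the brightest of them by mean level stood for each of 18171 genes. Names were updated through the RefSeq table, and probes without a match kept the name on the array. The deposited value table of log2 values, whose centring and scaling by the authors are not given in the sources used here, served as an alternative. Set against the scanner values it correlated at r = 0.982 to 0.990 over 18165 symbols, with column medians of -2.93 and -3.18 (healthy), -2.89 and -3.15 (ALA), -2.93 and -3.10 (fish oil) and -3.14 and -3.15 (n-6). How it combines the probes of a gene stays unknown.

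limma 3.58.1 in R 4.3.3 fitted 1 mean per group to all 8 arrays, with contrasts (ALA + fish oil) / 2 minus n-6 and ALA minus fish oil, and Benjamini-Hochberg adjustment over all genes, two-sided, at 0.05. In 20 simulated sets with 200 changed genes, the n-3 against n-6 fit on 18171 genes recovered 0.896% of changes of 1 log2 unit, 35.2% of 2 and 77.1% of 4, with 3 false calls per set on average. The number of arrays limits the precision. Genes named are 12 per direction by unadjusted p among those at least 1 unit from n-6 with each diet and without overlap. Further ones are 4 per direction with folds set against the floor, and 5 per direction for ALA against fish oil. Up to 4 members of each of 34 lists with an unadjusted p under 0.05 are named as well. Other list members in the text are given as values and were picked as known markers. The comparison, its lists and its rules were chosen with earlier results of these data known. A few genes are not reported here by name, though they count in the lists.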

Additional observations from a re-analysis of the deposited data

Results flagged for a closer look

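In 90 named genes the 4 n-3 arrays were searched for an array that stands apart, by the gap to the nearest other array over the whole range (above Dixon's 95% critical value for 4 arrays). Chance gives such a gap in about 1 of 20 genes, and 3 of the 90 had one. Hbb-bs stood at -1.19 on fish oil replicate 2, against -0.24 to -0.06 on the other 3 n-3 arrays. Ccl2 stood at -0.79 on fish oil replicate 2, against 1.05 to 1.21. Col1a2 stood at 3.95 on ALA replicate 1, against 4.14 to 4.17.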

How the results depend on the processing

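The 6 calls of n-3 against n-6 became 3 (Hba-a1, Hbb-b1 and Lpal2) with the n-3 arrays as 1 group, and 0 to 5 with 1 array left out. Edn2 was the 1 new call without n-6 replicate 2. The other alternatives gave 4 to 8. The number with an unadjusted p under 0.05 was 1502 at first and 854 to 3382 with 1 array left out. Scaling moved its split of 842 higher and 660 lower to 507 and 1057 (median centring), 647 and 812 (quantile) or 630 and 988 (normexp and quantile). In the fit with the replicate number as a block 5 genes passed, 1 higher and 4 lower, all among the 6. The numbers were not shown to pair arrays (correlations of deviations -0.17 to 0.47). ALA against fish oil gave 0 calls at first, 1 with quantile scaling, and 0 to 1 with 1 array left out. Of 90 named genes 89 kept their direction in each of the 19 or 20 alternatives that gave them a value, and Thbd turned to 0.70 in the deposited value table (adjusted p = 0.777), where the cause was not tested. Of the named genes not called, 4 passed in at least 1 alternative, namely Alas2, Hbb-bs, Slurp2 and Clec4d. List medians moved by more than the SD between arrays in at least 1 alternative for 26 of 34 lists. Signal over background limits the genes well above background on few arrays, whose folds rest on the floor and depend on the background correction.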

Other observations

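Lists not described above held few genes with an unadjusted p under 0.05 for n-3 against n-6, and none past the adjusted threshold. The counts of the hypoxia and glycolysis, the stem cell and Wnt target and the enteroendocrine genes changed with n-6 replicate 2 left out. The stem cell and Wnt target median was 0.29 without n-6 replicate 2 and -0.23 without n-6 replicate 1. That of the enteroendocrine genes was 0.66 and -0.61. Of 17 haem and iron handling genes 0 were higher and 1 lower (median -0.062), beside the lower red cell genes. Of 21 hypoxia and glycolysis genes Pdk1, which restrains pyruvate oxidation, was higher (0.88, SE 0.362). Among 22 genes of the unfolded protein response, Ern2, a stress sensor of mucosal epithelium, differed by 2.24 and the chaperone Hspa5 by -0.79 (SE 0.664 and 0.316). Of 12 stem cell and Wnt target genes 0 were higher and 1 lower, and of 12 enteroendocrine genes 0 were in either direction. The 16 enteric neuron and glia genes had 6 lower and 0 higher with ALA than with fish oil at the unadjusted p, with a median of -0.85, against 3.01% lower over all genes. That lower count became 1 with fish oil replicate 1 left out, 2 with ALA replicate 2 left out and 3 with fish oil replicate 2 left out.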
